A study of Mus musculus with 6 samples.

Results

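Collagens are the most abundant proteins of connective tissue, and each molecule is built from chains wound into a triple helix. Fibrillar collagens form the cables that resist tension, network collagens form the sheets of basement membranes and related layers, beaded type VI microfibrils surround cells, and fibril-associated collagens decorate the cables. Stromal cells of fat make many of these types, and the matrix of muscle is likewise laid down largely by its stromal cells. The genes described here are all rows of the deposited table whose mouse symbol is Col, a type number, the letter a and a chain number. There were 44 of them among 22186 genes, and they were sorted by type into 9 fibrillar, 9 network, 6 beaded, 6 fibril-associated and 14 other chains.

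RNA was sequenced from primary adipose-derived stromal cells (ADSCs, fibroblast-like cells isolated from fat) of wild-type mice. The control group held ADSCs alone (n = 3 libraries). The Treg co-culture group held ADSCs sampled 48 h into co-culture with Treg, the regulatory T cells that restrain other immune cells (n = 3 libraries). Since Treg were the only partner cells, what they do cannot be told apart from what any co-culture does. The labels name no individual animals, and each library carries a batch number from 1 to 3 that a control and a co-culture library share. Levels are in TPM, the length-corrected share of all transcripts in a library scaled to a total of 1000000, so they can be compared between genes, but the sequencing depth behind them is unknown.

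Nothing says that the replicates came from separate cultures or animals, so the p-values measure only the spread between these libraries. The stromal markers Thy1, Pdgfrb and Ly6a were abundant, at 463, 347 and 299 TPM in controls. Of 10 T cell markers, 7 were at 0 in every library, the defining Cd3d, Cd3e, Cd3g and Cd4 among them, and the list summed to 1.08 to 1.58 TPM in controls and 1.45 to 1.87 TPM after co-culture. The 8 skeletal muscle markers all rose, from a sum of 1192 to 1233 TPM to a sum of 3161 to 3234 TPM. Of 10 stromal markers, 6 fell and 2 rose, with sums of 1584 to 1589 and 1490 to 1518 TPM. The macrophage list of 8 had 7 tested genes, of which 1 fell (sums of 91.0 to 98.4 and 65.5 to 76.8 TPM). The endothelial list of 7 had 5 tested, of which 2 fell and 1 rose (38.5 to 41.1 and 34.8 to 36.1 TPM). Mesothelial and epithelial markers numbered 8, with 6 tested, 1 lower and 1 higher (494 to 501 and 466 to 489 TPM). Only 2 of 6 Schwann and glial markers were tested, and 1 fell (22.6 to 25.7 and 17.6 to 19.6 TPM). Among 10 cartilage and bone markers 4 were tested, 1 fell and 2 rose (44.6 to 47.5 and 46.4 to 49.0 TPM). Acan, Ibsp and Matn1 were at 0 throughout. Tested genes averaged at least 1 TPM, and of all of them 18% fell and 19.8% rose in the test described below. The 8 adult heart and liver transcripts summed to 102 TPM in Treg co-culture 1 and to at most 1.10 TPM in any control. The lowest co-culture sum was 0.318 TPM. Alb, the highest of them, stood at 64.9, 0.21 and 0 TPM in the co-culture libraries (replicates 1 to 3), so the excess lay in co-culture 1. In bulk RNA, fewer cells of a type and less RNA per cell cannot be told apart. The part of these marker changes in the collagen results below was not tested.

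Stretches just before the transcription start are shown for 3 pairs of chains whose products share a structure: the fibril partners Col1a2 and Col3a1, the type VI partners Col6a1 and Col6a2, and the type VIII chains Col8a1 and Col8a2. Each is the 150 bases before the RefSeq start, read 5′ to 3′ on the gene's own strand in GRCm38.p6, with every match to 3 motifs in capitals, searched on both strands. The motifs were CCAAT, which the factor NF-Y binds, the TATA box as TATAAA, and the GC box as GGGCGG. No motif contains another, but matches can share their end letters, as GC boxes do.
Col1a2: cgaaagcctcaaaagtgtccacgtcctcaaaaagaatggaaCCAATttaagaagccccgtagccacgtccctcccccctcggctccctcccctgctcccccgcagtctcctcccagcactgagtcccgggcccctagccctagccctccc
Col3a1: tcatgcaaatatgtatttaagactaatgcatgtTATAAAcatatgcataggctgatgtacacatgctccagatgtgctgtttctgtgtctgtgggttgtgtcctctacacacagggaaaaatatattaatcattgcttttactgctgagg
Col6a1: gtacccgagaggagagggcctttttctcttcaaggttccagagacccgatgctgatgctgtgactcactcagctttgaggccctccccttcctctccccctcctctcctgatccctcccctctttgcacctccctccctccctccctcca
Col6a2: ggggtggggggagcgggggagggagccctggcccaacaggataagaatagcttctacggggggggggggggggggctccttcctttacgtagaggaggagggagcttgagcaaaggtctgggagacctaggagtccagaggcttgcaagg
Col8a1: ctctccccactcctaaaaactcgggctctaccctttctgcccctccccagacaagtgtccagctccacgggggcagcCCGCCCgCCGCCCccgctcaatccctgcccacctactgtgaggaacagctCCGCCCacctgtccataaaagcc
Col8a2: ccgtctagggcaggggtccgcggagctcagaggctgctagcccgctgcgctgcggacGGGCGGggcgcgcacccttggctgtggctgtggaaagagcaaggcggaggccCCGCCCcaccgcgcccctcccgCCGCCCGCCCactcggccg

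In order, these stretches lie at chr6:4505468-4505617 (plus strand), chr1:45311388-45311537 (plus), chr10:76726045-76726194 (minus), chr10:76623631-76623780 (minus), chr16:57754738-57754887 (minus) and chr4:126286644-126286793 (plus). The Col1a2 stretch holds a CCAAT beginning 109 bases before the start. The Col3a1 stretch holds a TATAAA beginning 117 bases before the start. Both type VIII stretches hold several GC boxes, and the printed type VI stretches hold none of the 3 motifs. Col6a2 has 2 RefSeq starts, of which the upstream is shown. Its window holds a GC box beginning 175 bases before the start, outside the printed stretch, and that of the downstream start holds GC boxes beginning 67, 15 and 11 bases before it. Windows were on hand for 35 of the 44 chains. Over the 250 bases before the start, 21 of these 35 genes held a GC box, 13 a CCAAT and 5 a TATAAA, where a gene with 2 starts counted if either window matched. Of all 32851 windows of that length, 32.7% held a GC box, 33.8% a CCAAT and 12.4% a TATAAA. These shares count windows and not genes, so they are not like for like with the counts of chains. Among chains that fell in the comparison below, 11 of 16 with a window held a GC box, 6 of 16 a CCAAT and 1 of 16 a TATAAA. Among tested chains that did not pass, 3 of 6 held a GC box, 3 of 6 a CCAAT and none a TATAAA. A match is a description of the letters and not a binding site.

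Most collagen chains with a measurable level were lower in the Treg co-culture libraries, and each class held chains that fell. The furthest down were the minor chains Col8a2 and Col5a3, the fibril-coating Col14a1 and the type VI chains Col6a1 and Col6a2. The most abundant type I chains fell little, and the fibril-associated Col12a1 differed by less than its spread between libraries. Of the 44 chains, 26 had a mean of at least 1 TPM over the 6 libraries and were tested. Of these, 19 fell, none rose and 7 did not pass a limma adjusted p of 0.05 (Benjamini-Hochberg over 12405 genes). With the same test 18% of all genes tested were lower and 19.8% higher, and of the abundant genes, those averaging 100 TPM or more, 27.1% were lower. The share of tested chains that fell was 73.1%, and 13 of the 15 chains with a mean of at least 100 TPM fell. The 3 co-culture values lay entirely below the 3 control values for 19 tested chains, which are the chains that fell with Col18a1 in place of Col27a1, against 24% of all genes tested. None lay entirely above, against 25.3%. The median log2 fold change on log2(TPM + 1) was -0.21 over the 26 chains and 0.00 over all genes tested. Most falls were modest, with 6 of the 19 at 0.5 or more on the log2 scale, 6 between 0.25 and 0.5 and 7 under 0.25. Of all genes tested, 4.1% fell by 0.5 or more.

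**Figure D1:**
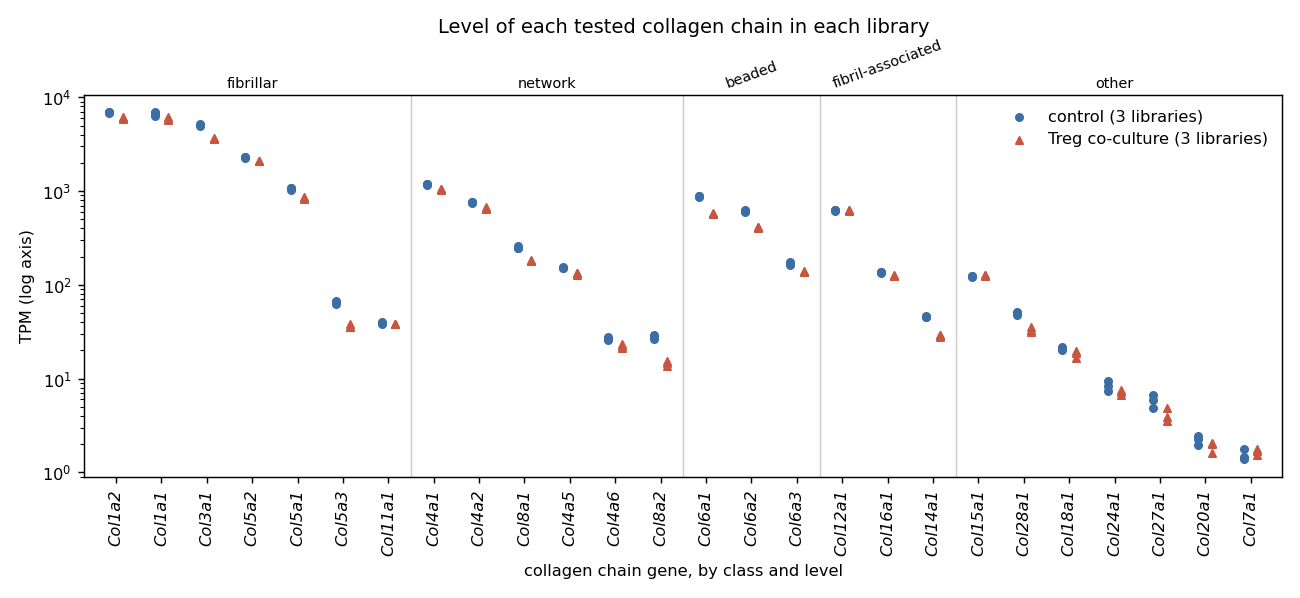
TPM (log axis) of the 26 tested collagen chains, ordered by class and mean level, with 1 point per library (circles, 3 control; triangles, 3 Treg co-culture). Levels run from about 6904 TPM in controls for Col1a2 to 1.53 TPM for Col7a1, and all triangles sit below all circles for 19 chains.

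Collagen transcripts together made up 2.72% of all TPM in controls and 2.27% after co-culture. The summed level was 26517, 27439 and 27745 TPM in the controls (replicates 1 to 3) and 22355, 23062 and 22771 TPM in the co-culture libraries (replicates 1 to 3). All 3 co-culture sums were below all 3 control sums, and the mean was 16.5% lower. The type I chains Col1a1 and Col1a2 made 49.97% of the collagen total in controls and 52.62% after co-culture, while the type III chain Col3a1 went from 18.65% to 15.87%. Of the summed fall of 4505 TPM, Col3a1 alone made 32.7% and both type I chains together 36.6%. By class, the mean sum was 32.7% lower for beaded, 16.1% for fibrillar, 14.1% for network, 8.04% for other and 3.37% for fibril-associated chains. These sums were not tested, since they are scores over chosen genes.

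**Figure D2:**
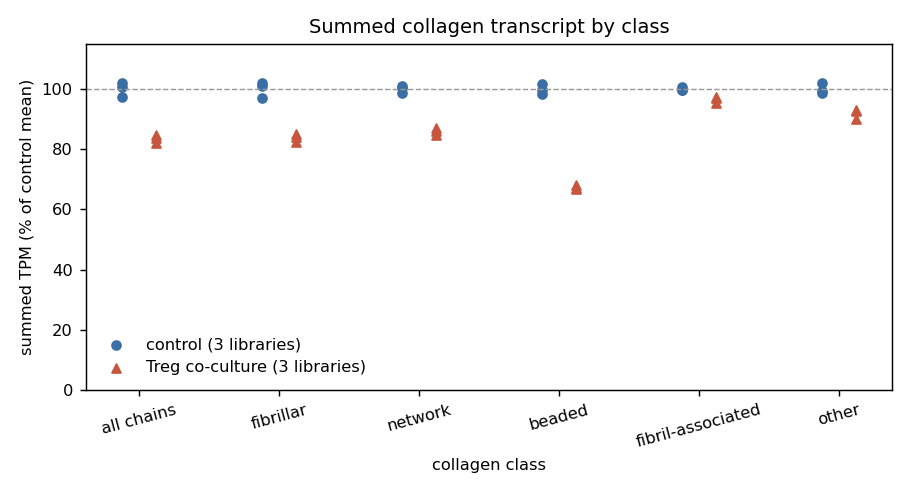
Summed TPM of all collagen chains and of each class in each library, as a percentage of the control mean (dashed line at 100); circles are the 3 control and triangles the 3 Treg co-culture libraries. The beaded class is furthest from the line, with a mean 32.7% below it, and the fibril-associated class is nearest, at 3.37% below.

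Fibrillar chains held the highest levels of the family. Type I collagen, the main fibril protein of skin, bone and stroma, is encoded by Col1a1 and Col1a2. Col1a1 stood at 6341, 6856 and 6919 TPM in the controls (replicates 1 to 3) and at 5762, 6103 and 5952 TPM in the co-culture libraries (replicates 1 to 3). The groups did not overlap (6705 ± 317 and 5938.9 ± 171 TPM, mean ± SD, n = 3 each), and control 1 lay nearer to the co-culture libraries than the other controls did. On the log2 scale it fell by 0.17 (SE 0.03, adjusted p = 0.00167 in limma). Col1a2 went from 6904 ± 129 to 6020.5 ± 93.4 TPM (log2 fold change -0.20, SE 0.02). Both type I calls were lost under quantile normalization, which gave -0.01 (adjusted p = 0.751) and -0.00 (adjusted p = 0.777). That method gives a gene a value by its rank within a library, and Col1a1 held ranks 9 to 11 and Col1a2 ranks 8 to 9 of all genes in the 6 libraries.

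Col3a1, the chain of type III collagen that joins type I in the fibrils of pliable tissue, fell further. Its levels were 4975, 5094 and 5171 TPM in the controls (replicates 1 to 3) and 3572, 3644 and 3605 TPM in the co-culture libraries (replicates 1 to 3). Every co-culture library was thus well below every control, and the mean fell by 29.0% (log2 fold change -0.49, SE 0.02, limma adjusted p = 1.8e-08). The Col3a1 rank went from 14 or 15 in the controls to between 23 and 25 after co-culture, while the type I ranks overlapped.

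Type V collagen sits inside type I fibrils and limits their diameter, and its 3 chains fell to different extents. Col5a2, the most abundant, went from 2290 ± 22.1 to 2088 ± 4.13 TPM (log2 fold change -0.13, SE 0.02). Col5a1 went from 1063 ± 30.1 to 842 ± 15.6 TPM (-0.34, SE 0.02). Col5a3, a minor chain of type V, stood at 63.1, 65.7 and 67.3 TPM in the controls (replicates 1 to 3) and at 35.5, 38.6 and 35.4 TPM in the co-culture libraries (replicates 1 to 3). Its groups were far apart, with a co-culture mean at 55.8% of control (log2 fold change -0.82, SE 0.05, limma adjusted p = 9.45e-07), and it was the second furthest down of all tested chains. Col11a1, a type XI chain that can take the place of type V chains in fibrils, did not pass (39.0 ± 0.777 and 38.0 ± 0.210 TPM, 95% interval of the log2 fold change -0.13 to 0.06). The cartilage chain Col2a1 was at 0.0363 TPM in the mean of either group, and Col11a2 was below 1 TPM in every library.

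**Figure D3:**
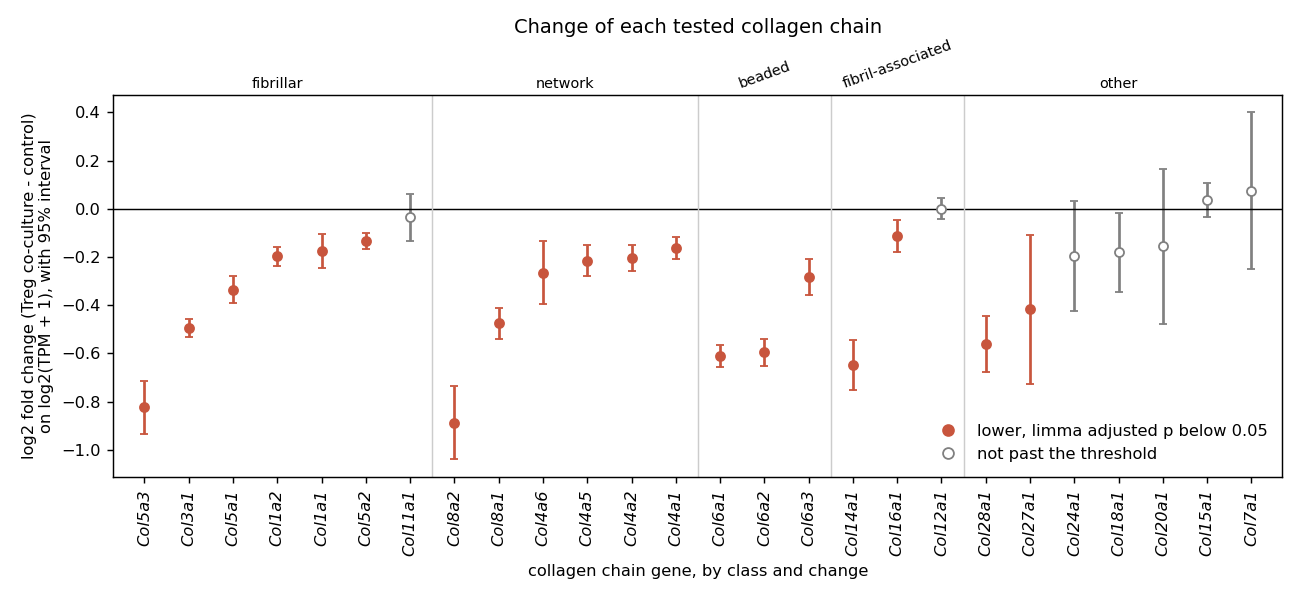
Log2 fold change on log2(TPM + 1) of the 26 tested chains, by class and size, with limma's 95% interval as bars; filled points passed an adjusted p of 0.05 and open points did not. Filled points run from -0.11 for Col16a1 to -0.89 for Col8a2, and the open point of Col12a1 sits at 0.00 with a narrow bar.

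Network chains were uniformly lower, with 6 of 6 tested chains past the threshold and a median log2 fold change of -0.24. Type IV collagen is the scaffold of basement membranes, and its widespread form is made of Col4a1 and Col4a2. Col4a1 stood at 1155, 1181 and 1206 TPM in the controls (replicates 1 to 3) and at 1040, 1061 and 1059 TPM in the co-culture libraries (replicates 1 to 3). Col4a2 stood at 746, 761 and 760 TPM and at 638, 676 and 652 TPM in the same order. Both fell by a similar step without overlap between groups (-0.16, SE 0.02, and -0.21, SE 0.02). Their genes stand head to head, and the 300-base windows around their RefSeq starts (250 bases before and 50 after) share 78 bases. The X-linked pair Col4a5 and Col4a6, which form the basement membrane of smooth muscle and skin, also fell (-0.22, SE 0.03, and -0.27, SE 0.06), at 153 ± 1.64 to 131 ± 2.06 TPM and 26.7 ± 0.770 to 22.1 ± 1.09 TPM.

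Type VIII collagen forms hexagonal lattices beneath endothelium and around vessels, and its chains gave the widest span of the network class. Col8a1 went from 252 ± 6.72 to 181 ± 1.66 TPM (log2 fold change -0.48, SE 0.03). Col8a2 stood at 26.4, 29.1 and 27.9 TPM in the controls (replicates 1 to 3) and at 13.6, 15.6 and 14.5 TPM in the co-culture libraries (replicates 1 to 3). This was the deepest fall of any tested chain (-0.89, SE 0.07, limma adjusted p = 5.41e-06), with co-culture levels close to 52.4% of control. The endothelial marker list, whose cells are a known source of types IV and VIII, stood at 34.8 to 36.1 TPM against 38.5 to 41.1 TPM in controls. Its part in these values was not tested.

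Beaded type VI collagen assembles into microfibrils around cells and is part of the setting of muscle stem cells. Col6a1 stood at 872, 884 and 888 TPM in the controls (replicates 1 to 3) and at 577, 568 and 585 TPM in the co-culture libraries (replicates 1 to 3). Col6a2 stood at 605, 619 and 634 TPM and at 401, 413 and 414 TPM. The groups of both chains were well apart, with co-culture means at 65.4% and 66.1% of control, and the log2 fold changes were -0.61 (SE 0.02, limma adjusted p = 1.39e-08) and -0.60 (SE 0.02, adjusted p = 6.18e-08). Col6a3, the large chain that completes the molecule and carries the endotrophin fragment, fell by less, from 169 ± 5.84 to 139 ± 2.28 TPM (-0.29, SE 0.03). The alternative chains Col6a4, Col6a5 and Col6a6 were below 0.3 TPM in every library and were not tested.

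Fibril-associated chains split. Col14a1, which coats fibrils and binds the proteoglycan decorin, stood at 45.1, 45.3 and 46.1 TPM in the controls (replicates 1 to 3) and at 27.8, 29.0 and 29.2 TPM in the co-culture libraries (replicates 1 to 3). The groups were far apart, and it fell by 0.65 on the log2 scale (SE 0.05, limma adjusted p = 3.23e-06). Col12a1, a related fibril-coating chain that is more than 10 times as abundant, stood at 619, 623 and 625 TPM and at 617, 625 and 626 TPM in the same order. Its groups overlapped, and the 95% interval of its log2 fold change was -0.04 to 0.04. Col16a1 fell slightly, from 136 ± 1.40 to 126 ± 2.44 TPM (-0.11, SE 0.03, limma adjusted p = 0.0145). That call was lost without Treg co-culture 1 (adjusted p = 0.0559) and without the trend in eBayes (0.0627). Either leaves 1 of 3 chains of the class. Of the type IX chains of cartilage, Col9a1 was listed at 0 in every library, and Col9a2 and Col9a3 were below 1 TPM.

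Of 7 tested chains of other types, 2 fell. Col28a1, whose domain layout resembles that of type VI chains, stood at 49.97, 51.2 and 48.1 TPM in the controls (replicates 1 to 3) and at 33.2, 31.8 and 35.3 TPM in the co-culture libraries (replicates 1 to 3). These values did not overlap (log2 fold change -0.56, SE 0.05, limma adjusted p = 2.01e-05). Type XXVIII is known from the sheath of peripheral nerve, and the Schwann and glial list summed to 22.6 to 25.7 TPM in controls and 17.6 to 19.6 TPM after co-culture, a change whose part here was not tested. Col27a1, fibrillar in structure, stood at 5.94, 4.84 and 6.62 TPM in controls and 3.91, 4.85 and 3.51 TPM after co-culture by the deposited values, which overlap. The call rested on a log2 fold change of -0.42 (SE 0.14) with a limma adjusted p of 0.037. The call was lost with the replicate block (adjusted p = 0.0694), with no filter on low values (0.0782) and without the trend in eBayes (0.0536). It was also lost when control 1 (0.093), control 3 (0.128), co-culture library 1 (0.0893) or co-culture library 3 (0.118) was left out. Without this call, 1 of 7 chains of this class is left.

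The multiplexins of the basement membrane zone did not pass. Col15a1 stood at 124 ± 2.73 and 127 ± 1.48 TPM (95% interval of the log2 fold change -0.03 to 0.11), and Col18a1, the source of endostatin, at 21.0 ± 0.989 and 18.4 ± 1.52 TPM (-0.34 to -0.02, adjusted p = 0.0799). Nor did Col24a1, fibrillar in structure but counted among the other types, at 8.35 ± 0.985 and 7.14 ± 0.427 TPM. Col20a1, at 2.22 ± 0.266 and 1.89 ± 0.253 TPM, did not pass either. The same held for the anchoring-fibril chain Col7a1, at 1.53 ± 0.211 and 1.66 ± 0.122 TPM. The intervals of Col24a1 (-0.42 to 0.03), Col20a1 (-0.48 to 0.16) and Col7a1 (-0.25 to 0.40) are wide enough to hold falls as large as those of the type I chains.

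Chains that are assembled into the same molecule or fibril kept or changed their proportions, as the TPM ratio within each library shows. These ratios are given without a test. The log2 ratio of Col1a1 to Col1a2 was -0.04 ± 0.04 in controls and -0.02 ± 0.02 after co-culture, so that both were near parity. The ratio of Col4a1 to Col4a2 was 0.64 ± 0.02 and 0.68 ± 0.03, and that of Col6a1 to Col6a2 was 0.51 ± 0.02 and 0.49 ± 0.03, and the groups overlapped for all 3 pairs. Col6a3 relative to Col6a1 was higher after co-culture (-2.06 ± 0.04) than in controls (-2.38 ± 0.04), although both fell in TPM. Col3a1 relative to Col1a1 was -0.35, -0.43 and -0.42 in the controls (replicates 1 to 3) and -0.69, -0.74 and -0.72 in the co-culture libraries, so that the linear ratio went from 0.758 to 0.607. Col5a1 relative to Col5a2 went from -1.11 ± 0.04 to -1.31 ± 0.03 and Col5a3 relative to Col5a2 from -5.13 ± 0.04 to -5.84 ± 0.07. Col8a1 relative to Col8a2 went the other way, from 3.18 ± 0.11 to 3.64 ± 0.10. Col12a1 relative to Col1a1 went from -3.43 ± 0.06 to -3.25 ± 0.03. In each of these last 6 pairs, from Col6a3 to Col12a1, the co-culture libraries did not overlap the controls. The same held for Col5a1 relative to Col1a1 (-2.66 ± 0.03 and -2.82 ± 0.02), while the groups overlapped for Col4a5 relative to Col4a6 (2.52 ± 0.03 and 2.57 ± 0.09) and to Col4a1 (-2.951 ± 0.02 and -3.003 ± 0.03). In the ratio of Col4a3 to Col4a4 both chains were below 1 TPM, and in that of Col11a1 to Col11a2 only Col11a2 was. The groups of both ratios overlapped (mean differences of -0.13 and 0.46).

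**Figure D4:**
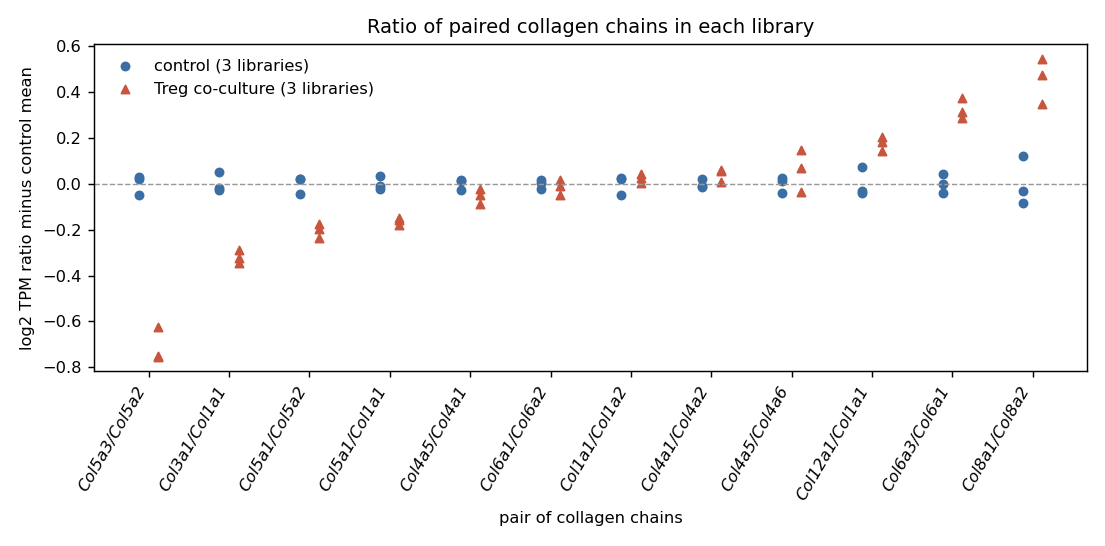
Log2 ratio of the TPM of paired chains in each library, minus the control mean of that pair (dashed line at 0); circles are the 3 control and triangles the 3 Treg co-culture libraries. The triangles of Col5a3/Col5a2 sit lowest, by 0.71 on average, and those of Col8a1/Col8a2 highest of the 12 pairs drawn, by 0.45. The Col6a1/Col6a2 triangles overlap the circles, with that of Treg co-culture 2 below them. Col4a3/Col4a4 and Col11a1/Col11a2 are not drawn, since Col4a3, Col4a4 and Col11a2 were below 1 TPM.

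Below the filter of 1 TPM lay 18 chains, of which 16 stayed under 1 TPM in every library. Their low values carry little weight, since the depth is unknown. Col19a1, fibril-associated in structure but counted here among the other types, is seen in embryonic muscle. Its control values were 0.298, 0.472 and 0.232 TPM (replicates 1 to 3). Those in the co-culture libraries were 0.963, 0.861 and 0.774 TPM (replicates 1 to 3). Col26a1 stood at 0.704, 0.177 and 0.316 TPM and at 1.09, 1.07 and 1.24 TPM. The groups of both chains were apart, with the co-culture values on top. With no filter on low values these were the only 2 chains that rose (log2 fold change 0.49, adjusted p = 0.008, and 0.63, adjusted p = 0.0148, limma over 16952 genes), while 18 of 43 chains fell. In that fit 13.4% of all genes were higher and 12% lower. Also without overlap, but not past the threshold in that fit, were Col17a1 and Col25a1, transmembrane collagens, on the higher side and Col4a3 and Col4a4, the chains of the glomerular basement membrane, on the lower side. Col4a3 stood at 0.377 ± 0.0956 and 0.183 ± 0.05001 TPM and Col4a4 at 0.791 ± 0.147 and 0.433 ± 0.154 TPM.

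**Figure D5:**
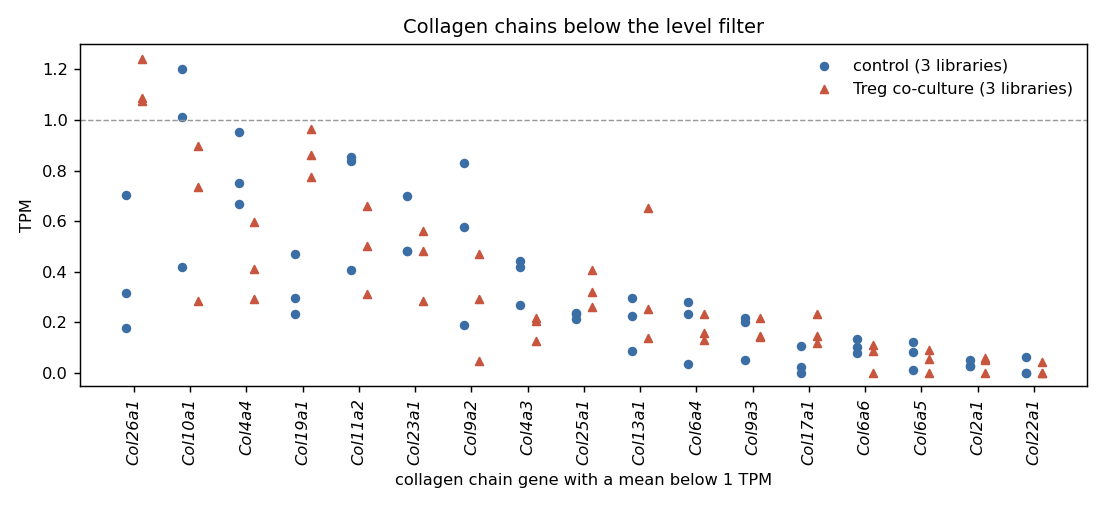
TPM in each library of the 17 collagen chains with a mean above 0 and below 1 TPM (circles, 3 control; triangles, 3 Treg co-culture), with the filter level of 1 TPM as a dashed line. For Col26a1 and Col19a1 the triangles lie above the circles, for Col4a4 and Col4a3 below, and most other chains overlap.

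Genes whose products fold, cut, crosslink, bind or degrade collagen were counted from lists, and most of these lists held changes in both directions. The background shares are those given above, and the median over all genes tested was 0.00. Proteins that bind fibrils were mostly lower, with 13 of 17 tested genes falling, 1 rising and a list median of -0.37. Among these, asporin, Aspn, fell from 178 ± 12.01 to 55.0 ± 2.77 TPM, decorin, Dcn, which controls fibril growth, from 1018 ± 33.5 to 576 ± 8.35 TPM, the proteoglycan osteoglycin, Ogn, from 433 ± 17.3 to 239 ± 2.99 TPM and periostin, Postn, from 2903 ± 79.5 to 1998 ± 7.25 TPM.

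Of the enzymes that fold and modify the chains, 8 of 19 fell and 3 rose, with a median of -0.06, and the counts were 2 lower and 1 higher without the trend in eBayes and likewise at an adjusted p of 0.01. The lysyl hydroxylase Plod2, which sets the crosslink type of fibrils, fell from 468 ± 8.65 to 333 ± 7.15 TPM (log2 fold change -0.49), whereas Plod1 fell by 0.14, the prolyl hydroxylase subunit P4ha1 fell by 0.13 and P4ha3 rose by 0.17 on the log2 scale. Of this list, the count of lower genes was 5 without control 2, 4 without control 3 and 4 without Treg co-culture 1, and the count of higher genes was 1 without Treg co-culture 2. Of 12 genes for procollagen processing and crosslinking, 3 fell and 6 rose (median 0.15). The procollagen N-proteinase Adamts2 fell by 0.53, the C-proteinase enhancer Pcolce fell by 0.43 and lysyl oxidase, Lox, fell by 0.27, while Loxl3 rose from 78.1 ± 2.20 to 132 ± 2.35 TPM (0.75).

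Of 11 collagen receptor and uptake genes, 4 fell and 3 rose (median -0.02). The collagen-binding integrin chains Itga11 (-0.61) and Itga1 (-0.66), the receptor Antxr1 (-0.38), which binds type VI collagen, and the collagen-sensing kinase Ddr2 (-0.23) fell. Of 7 collagen-degrading proteases, 3 fell and none rose (median -0.06), namely the gelatinase Mmp2 (729 ± 19.7 to 490.1 ± 11.7 TPM), the cathepsin Ctsk (-0.28) and the serine protease Fap (-0.32). The collagenase Mmp13 did not pass, at 2.40 ± 0.267 and 3.40 ± 0.477 TPM (adjusted p = 0.0533). Of 25 factors known to act on collagen transcription, 6 fell and 6 rose (median -0.06). The immediate-early factor Egr1 fell from 298 ± 6.91 to 135 ± 4.66 TPM, the TGF-beta receptor Tgfbr2 by 0.28 and the ligand Tgfb3 by 0.28 on the log2 scale, while the TGF-beta inhibitor Smad7 rose from 22.3 ± 1.09 to 39.0 ± 1.78 TPM. Named after their values were seen, the ligand Tgfb1 (0.28) and the receptor Tgfbr1 (0.19) rose and the ligand Tgfb2 fell (-0.32).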

How the data were processed

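The values are TPM, computed by the authors and deposited as a single table (libraries in columns, NCBI gene numbers in rows). Per the submitters' processing notes, builds GRCm38, mm10 and GRCm39 were involved, in roles not stated. Aligner and counter: not given in the sources used here. Of 22186 gene numbers, 21992 (99.1%) matched a symbol in a RefSeq table of GRCm38.p6. TPM scales each library to 1000000, so values are shares and the depth is unknown. Between 6566 and 7073 genes were at 0 per library.

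Genes averaging 1 TPM or more were tested on log2(TPM + 1), which understates folds of low genes, with limma 3.58.1 (R 4.3.3; eBayes with trend, 2-sided, Benjamini-Hochberg over all genes tested, threshold 0.05). The test was run on simulated data as a check, whose outcome is not given here and lends no support to the calls. Python 3.11.15, pandas 2.3.3 and matplotlib 3.10.9 were used for tables and plots. Every collagen chain may be named, with up to 4 genes of lowest adjusted p per partner list and up to 3 of highest TPM per marker list. Members and lists were chosen with earlier results of these data known. The labels say that equal numbers share a batch, so a fit with batch as a replicate block was an alternative. Deviations of same-numbered libraries correlated at 0.01, -0.01 and 0.00. Other alternatives varied pseudocount, filter, scaling, eBayes, threshold and libraries.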

Additional observations from a re-analysis of the deposited data

How the results depend on the processing

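The number of collagen chains that fell stayed between 17 and 20 under every alternative tried, and between 17 and 19 with each library left out. Of 439 single-chain values under the alternatives, 428 stayed on their side of the threshold and 11 were no longer past it. The sign changed for Col12a1 alone, in 5 alternatives and never with a call. With no filter on low values, 2 chains were higher, both of other types, and 1 chain of other types was lower. The lower count of other types was also 1 with a filter of 5 TPM, without the trend in eBayes, with the replicate block and at an adjusted p of 0.01, and 1 to 2 with a library left out. The block changed no other collagen call and moved no count of the partner lists by over 1.5 times. For fibril-associated chains the lower count was 1 without the trend and at an adjusted p of 0.01, and 1 to 2 with a library left out. For folding and modification enzymes, the counts were 2 lower and 1 higher without the trend, 2 lower and 1 higher at an adjusted p of 0.01, and 4 to 8 lower and 1 to 3 higher with a library left out. At an adjusted p of 0.01, 1 receptor gene was higher, and 2 degrading proteases were higher without the trend and at an adjusted p of 0.1. The summed collagen ratio, 0.835, stayed between 0.824 and 0.842 with a library left out. Of the ratios of paired chains, only those of Col1a1/Col1a2 (-0.00 to 0.04), Col6a1/Col6a2 (-0.03 to 0.00) and Col4a3/Col4a4 (-0.53 to 0.11) spanned 0 with a library left out. The cause of these shifts was not tested. Without depth, no counting error can be given for the low chains.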

Other observations

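Several collagen genes are direct neighbours among protein-coding genes in RefSeq (GRCm38.p6), in 8 pairs. In 4 of these pairs both chains were tested, and all 8 chains fell. Of all tested chains 73.1% fell, and of all genes tested 18%. On chromosome 10 the type VI neighbours Col6a1 and Col6a2 fell by near-equal steps (-0.61 and -0.60 on the log2 scale), as did Col4a1 and Col4a2 on chromosome 8 (-0.16 and -0.21) and Col4a5 and Col4a6 on the X chromosome (-0.22 and -0.27). On chromosome 1 the fibrillar neighbours Col3a1 and Col5a2 fell by unequal steps (-0.49 and -0.13). The near-equal steps were those of neighbours whose products share a molecule. Col1a1 and Col1a2, which share a molecule but are not neighbours, also fell by similar steps (-0.17 and -0.20). Other chains that share a molecule without being neighbours fell by unequal steps. These were Col5a1 and Col5a2 (-0.34 and -0.13) and Col6a1 and Col6a3 (-0.61 and -0.29). The parts of being next to each other and of sharing a molecule in these steps were not tested. With 4 pairs of neighbours this is a description only.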
